A study of Mus musculus with 12 samples.

Results

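The genes described here write, read out and erase DNA methylation, or make and use the metabolites on which that depends. They are the 5-methylcytosine oxidases Tet1, Tet2 and Tet3, the DNA methyltransferases Dnmt1, Dnmt3a and Dnmt3b, the isocitrate dehydrogenases Idh1 and Idh2, and the DNA glycosylases Tdg and Mbd4. They were taken by symbol from a table of gene expression. Of these 10 genes, 9 were found among the 15366 genes of the table, and all 9 passed the filter on low values that left 13046 genes for testing. Tdg was not analysed here.

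The material was poly(A) RNA of bone marrow LSK cells (lineage-negative, Sca-1-positive, Kit-positive), a sorted fraction rich in blood stem cells and early multipotent progenitors, from untreated C57BL/6 mice. There were 4 genotypes with 3 libraries each. Vav Cre carries the Cre recombinase under the blood-cell promoter Vav and nothing else, and is the control. The Tet2 KO group is Vav Cre with Tet2 flox/flox. The group called KDM6B OE carries human KDM6B, a histone H3 lysine 27 demethylase, under Vav, and its label names no Cre. The double lesion carries the human KDM6B transgene, Vav Cre and Tet2 flox/flox. The Cre label is therefore shared by all groups except KDM6B OE, so that in comparisons with KDM6B OE the Cre label and the named lesion cannot be told apart. The labels give neither age nor sex, nor whether replicate libraries are from different mice. P-values therefore measure the spread between these libraries, which may be technical in part.

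In mammalian cells Dnmt1 copies existing methylation at CpG sites onto the newly made strand after replication, while Dnmt3a and Dnmt3b can methylate sites that carried none. The Tet proteins oxidise 5-methylcytosine to 5-hydroxymethylcytosine and further forms, using iron and 2-oxoglutarate. Tdg removes the most oxidised forms and thymine opposite guanine, and Mbd4 removes thymine or uracil opposite guanine at CpG sites, after which base excision repair restores the cytosine. Idh1 in the cytosol and Idh2 in mitochondria make 2-oxoglutarate from isocitrate. In blood, loss of TET2 or DNMT3A and mutant forms of IDH1 and IDH2 recur in clonal haematopoiesis and myeloid leukaemia. RNA levels alone were measured here, so nothing below is a measurement of DNA methylation.

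Each library held 21935022 to 26263370 reads on the listed genes, and values are CPM, counts over the library total after the authors' scaling, of which 3 reads are worth at most 0.139. The LSK genes Kit (356 to 907 CPM), Ly6a (78.2 to 180 CPM) and Cd34 (821 to 1053 CPM) were present in all 12 libraries. Genes that mark other cells were mixed. Of the T-cell list, Cd3e stayed at or below 1.43 CPM while Lck was at 24.7 to 110 CPM, and of the B-cell list, Pax5 was at 0 in 9 libraries while Cd79b was at 56.6 to 110 CPM. The 5 T-cell genes summed to 52.2 to 112 CPM in Vav Cre and to 28.4 to 79.9 CPM in the other groups. Y-chromosome transcripts were present in 4 libraries (Vav Cre replicate 1, Tet2 KO replicate 1 and double lesion replicates 1 and 3). The Vav Cre libraries varied most, with a median within-group SD of 0.28 on the log2 scale against 0.15 to 0.21 in the other groups. The 6 B-cell genes summed to 80.8 to 88.9 CPM in Vav Cre, 64.9 to 84.0 in KDM6B OE and 80.0 to 108 in the double lesion, and to 64.0, 73.0 and 182 CPM over the Tet2 KO libraries, with replicate 2 highest. The 3 erythroid genes measured of 6 summed to 27.5 to 164 CPM in Vav Cre, with replicate 2 highest, and to 26.8 to 79.5 CPM in the other groups. The 5 neutrophil genes summed to 1.19 to 2.01 CPM in Vav Cre and to 4.49 to 43.1 CPM in the others. Of the 4 dendritic-cell genes, Siglech stayed at or below 2.33 CPM and Itgax at or below 3.62 CPM. Most of their sum was Flt3 (276 to 501 CPM), also listed as an LSK gene, and Cd74 (118 to 1074 CPM). The sum was 581 to 788 CPM in Vav Cre and 568 to 652 CPM with the transgene alone. The double lesion had 934 to 1001 CPM, above both, and Tet2 KO 623 to 1350 CPM, with replicate 2 highest. The part of such cells, if present, in the differences below was not tested. Differences below are on the log2(CPM + 1) scale with their standard error, from 1 limma fit over all 12 libraries. A gene is called changed where its p adjusted over the 13046 genes is under 0.05. The fit does not pair same-numbered libraries, although those of Vav Cre and Tet2 KO deviated together.

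Tet2 itself was lower in every library with the floxed alleles than in every library without them, a separation that 0.675% of all genes showed. Its level was 82.9, 66.2 and 97.1 CPM in Vav Cre. KDM6B OE had 64.9, 87.6 and 84.5 CPM. The Tet2 KO libraries had 31.6, 24.9 and 24.1 CPM, and those of the double lesion 37.2, 35.1 and 26.5 CPM. The highest floxed library thus lay well below the lowest unfloxed one, and neither floxed group came near 0, since its libraries held 537 to 998 reads of the gene. The mean fell from 82.1 ± 15.5 CPM in Vav Cre to 26.8 ± 4.10 CPM in Tet2 KO, or 32.7% of it (SD, n = 3). The double lesion mean was 32.9 ± 5.70 CPM, or 40.1%. The labels do not name the floxed exons, and a value for the whole gene does not separate reads of deleted exons from reads of the rest.

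**Figure D1:**
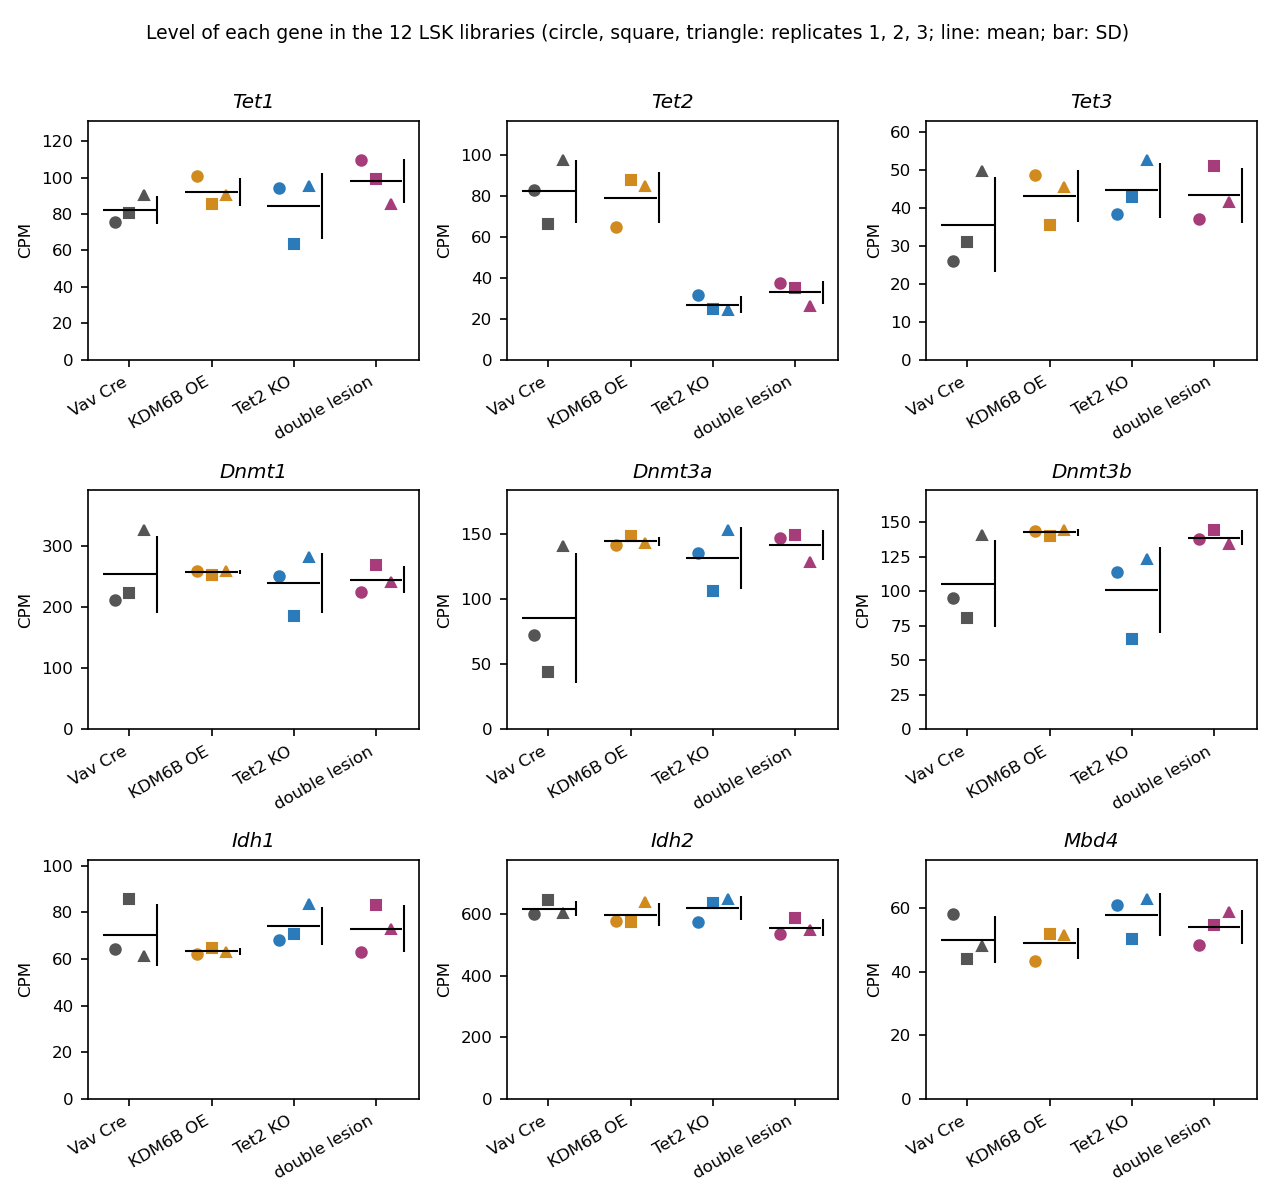
Level of each of the 9 genes in CPM (linear vertical axes from 0) in the 4 genotype groups. Points are libraries and bars are group means with SD (n = 3). Tet2 separates the floxed groups (24.1 to 37.2 CPM) from the unfloxed groups (64.9 to 97.1 CPM), and Dnmt3a and Dnmt3b vary widely in Vav Cre and little in KDM6B OE.

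Tet2 was called lower in Tet2 KO than in Vav Cre (log2 difference −1.57 ± 0.18, limma adjusted p = 0.00904), where it ranked first of 13046 genes by p. That was the sole member called in this comparison, in which 0.0307% of all genes were called in either direction and 0.00767% as lower. It was called lower in the double lesion than in Vav Cre (−1.29 ± 0.18, limma adjusted p = 0.00315), at rank 26, where 14.9% of all genes were called and 7.58% as lower. Between the 6 floxed and the 6 unfloxed libraries the difference was −1.41 ± 0.13 (limma adjusted p = 0.000531), again at rank 1, with 0.207% of all genes called and 0.0383% as lower. On the CPM scale the floxed libraries stood at 37.1% of the unfloxed, with unadjusted p = 0.00216 in a two-sided exact permutation test over 924 arrangements. Adjusted over the 18 permutation tests of members, it was 0.0390. The next smallest was Dnmt3b between transgene and other libraries (permutation p = 0.00866, adjusted 0.0779). The Tet2 KO call rests on the spread shared by the 4 groups: with the compared groups alone the difference was the same and the limma adjusted p was 0.225. Leaving out any 1 library did not end these 3 calls.

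In the double lesion against KDM6B OE, Tet2 stood at 41.7% of the KDM6B OE mean and had the smallest p of all genes, yet it missed the threshold (−1.24 ± 0.18, limma adjusted p = 0.129). No gene was called in that comparison (0.0% of all genes). An unadjusted limma p under 0.05 was found for 771 genes (5.91% of all), Tet2 among them. edgeR called 0 genes and DESeq2 20 there, and DESeq2 gave Tet2 an adjusted p of 6.48e-07. Tet2 was also called by limma with the compared groups alone (adjusted p = 0.00229), without Vav Cre replicate 3 (limma adjusted p = 0.0219), and without KDM6B OE replicate 1 (limma adjusted p = 0.0335). Other alternatives weakened it, and the limma adjusted p was highest without KDM6B OE replicate 3, at 0.794. The difference itself was −1.37 to −1.09 over the alternatives. The transgene without the floxed alleles left Tet2 at 96.2% of Vav Cre (−0.05 ± 0.18, 95% interval −0.44 to 0.34, limma adjusted p = 0.902). Residual Tet2 in the double lesion and in Tet2 KO differed by 0.28 ± 0.18 (limma adjusted p = 0.583), and their libraries overlapped. The interaction of the lesions on Tet2 was 0.33 ± 0.26 (limma adjusted p = 0.999). In RNA of bulk cells, fewer cells that express a gene and less RNA per cell cannot be told apart.

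In the GENCODE annotation, Tet2 lies on the minus strand of chromosome 3 at 133463679 to 133545139 (GRCm38, the assembly also called mm10). An exon of Gm42567 overlaps it on the other strand. The library kit does not mark strand, so reads of that overlap cannot be told apart. Because the comparison of floxed and unfloxed libraries turns on Tet2, the sequence around its RefSeq start, inside these GENCODE bounds, is shown. It is the 300-base RefSeq promoter window at chr3:133544341-133544640, minus strand, GRCm38.p6, with the sites at which these enzymes act, the CpG dinucleotides (CG), in capitals.
Tet2: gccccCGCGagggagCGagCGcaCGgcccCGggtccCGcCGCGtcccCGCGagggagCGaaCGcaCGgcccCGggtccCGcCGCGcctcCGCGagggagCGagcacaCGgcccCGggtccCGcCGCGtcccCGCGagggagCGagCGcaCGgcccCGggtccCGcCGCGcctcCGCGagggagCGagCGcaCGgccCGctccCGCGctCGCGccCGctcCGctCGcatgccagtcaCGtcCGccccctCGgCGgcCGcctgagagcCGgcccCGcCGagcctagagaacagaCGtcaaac
The window held 57 CG, a number that 0.152% of the 32851 windows of this length reach or pass, against a median of 7. CG occurs at least once in 94.6% of windows. A stretch of 25 bases, CCGCGAGGGAGCGAGCGCACGGCCC, occurs 3 times in it and was found on either strand in 1 of all windows, that of Tet2. These counts describe the sequence; its methylation was not measured.

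The other 2 oxidases were not called in any comparison. Tet1 (chromosome 10, 62804570 to 62908996, minus strand), which carries a CXXC domain that binds unmethylated CpG, was at 75.8, 80.4 and 90.4 CPM in Vav Cre and 94.5, 63.7 and 95.4 CPM in Tet2 KO. It was at 100.6, 85.4 and 90.3 CPM in KDM6B OE and 109, 99.2 and 85.3 CPM in the double lesion. All 4 groups overlapped. Its difference from Vav Cre was 0.02 ± 0.16 in Tet2 KO (95% interval −0.31 to 0.35) and 0.25 ± 0.16 in the double lesion (−0.09 to 0.58, limma adjusted p = 0.295). Tet3 (chromosome 6, 83362373 to 83459084, minus strand), the oxidase of the zygote, was at 26.1, 31.1 and 49.7 CPM in Vav Cre and 38.5, 42.9 and 52.6 CPM in Tet2 KO. In KDM6B OE it was at 48.7, 35.5 and 45.5 CPM and in the double lesion at 37.2, 51.1 and 41.7 CPM. Its Vav Cre mean of 35.6 ± 12.4 CPM was the lowest of the groups, and Vav Cre replicate 3 lay within the range of the others. The Tet3 difference was 0.36 ± 0.22 in Tet2 KO (95% interval −0.11 to 0.83, limma adjusted p = 0.487). In the double lesion it was 0.32 ± 0.22 (limma adjusted p = 0.343), and without Vav Cre replicate 3 it was 0.58 (limma adjusted p = 0.0363). Without that library 3585 of all genes were called in this comparison, against 1947 with all libraries. A rise of Tet1 or Tet3 beside the fall of Tet2 was thus not called, and the intervals leave room for changes up to their upper bounds.

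Dnmt3a had the largest difference from Vav Cre among the genes other than Tet2, in the same direction in all 3 other groups, and none of these differences was called by the limma fit described above. It was at 72.5, 44.0 and 141 CPM in Vav Cre, the widest spread of any member in any group (SD 0.83 on the log2 scale). KDM6B OE had 142, 148 and 143 CPM, and Tet2 KO had 136, 106 and 153 CPM. The double lesion had 147, 149 and 129 CPM. Vav Cre replicates 1 and 2 were thus below all other libraries, and Vav Cre replicate 3 was level with them; KDM6B OE alone did not overlap Vav Cre, which holds for 22.6% of all genes. KDM6B OE exceeded Vav Cre by 0.90 ± 0.29 (limma adjusted p = 0.127), in a comparison where 0.598% of all genes were called and 0 members. Tet2 KO exceeded it by 0.76 ± 0.29 (limma adjusted p = 0.304) and the double lesion by 0.87 ± 0.29 (limma adjusted p = 0.0556). These comparisons share the 3 Vav Cre libraries.

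The Dnmt3a difference depends on which control libraries are in the fit. Without Vav Cre replicate 3 it was 1.34 for KDM6B OE (limma adjusted p = 0.00204) and 1.19 for Tet2 KO (0.0146), both called. For the double lesion it was 1.31 (limma adjusted p = 0.000951), also called. That fit called 1934, 307 and 3585 of all genes in these comparisons, against 78, 4 and 1947 with all libraries. Without Vav Cre replicate 2 the Dnmt3a difference was 0.51 for KDM6B OE (limma adjusted p = 0.347) and 0.36 for Tet2 KO (0.634). For the double lesion it was 0.48 (limma adjusted p = 0.200). With all libraries, the double lesion difference was also called at equal totals (0.0478) and with a block by replicate number (0.0321). The interaction of the lesions on Dnmt3a was −0.79 ± 0.41 (limma adjusted p = 0.999), and −1.22 to −0.39 over the alternatives. In that comparison 0.0% of all genes were called and 578 (4.43% of all) had an unadjusted limma p under 0.05. There 0 genes were called by edgeR and 5 by DESeq2. The erythroid sum was highest in Vav Cre replicate 2 (Klf1 at 142 CPM there), where Dnmt3a was lowest. In Vav Cre replicate 1, where Dnmt3a was also low, that sum was 27.5 CPM, below the 56.8 CPM of replicate 3. The part of erythroid cells in the result was not tested. An exon of Dnmt3aos lies on the strand opposite Dnmt3a, and reads of that overlap cannot be told apart.

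Dnmt3b was higher on average in both groups with the transgene than in both without it, and the difference was not called in the main limma fit. It was at 94.99, 80.8 and 141 CPM in Vav Cre and 114, 65.2 and 123 CPM in Tet2 KO. It was at 143, 140 and 144 CPM in KDM6B OE and 138, 144 and 134 CPM in the double lesion. The 6 transgene libraries kept within 134 to 144 CPM, and of the other 6 only Vav Cre replicate 3 reached that range. Between the 6 transgene and the 6 other libraries the difference was 0.49 ± 0.15 (limma adjusted p = 0.0735), in a comparison in which 4.35% of all genes were called and 0 members. It was 0.43 ± 0.22 in the double lesion against Vav Cre (limma adjusted p = 0.189) and 0.51 ± 0.22 against Tet2 KO (limma adjusted p = 0.444), which it did not overlap, as 21.6% of all genes did not; there 0.215% of all genes were called and 0 members. Without Vav Cre replicate 3 the transgene difference was 0.60 (limma adjusted p = 0.0102), the single library whose removal gave a call. That fit called 2771 of all genes, against 568 with all libraries. The transgene difference was also called with a block by replicate number (limma adjusted p = 0.0327), as were 1516 of all genes. DESeq2 called it too (adjusted p = 0.0419), with 1624 of all genes. For Tet2 KO against Vav Cre the Dnmt3b difference was −0.08 ± 0.22 (95% interval −0.55 to 0.39). Tet2 KO replicate 2, the library with the highest B-cell sum, was the lowest of all for Dnmt3b and the third lowest for Dnmt3a; without it the transgene difference of Dnmt3b was 0.35 (limma adjusted p = 0.140).

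The windows of both de novo enzymes are shown beside that of Tet2 because these genes had the next largest differences. Each is a 300-base RefSeq window on GRCm38.p6, plus strand, with CG in capitals: chr12:3806730-3807029 for Dnmt3a, the first of its 3 RefSeq starts, and chr2:153649199-153649498 for Dnmt3b.
Dnmt3a: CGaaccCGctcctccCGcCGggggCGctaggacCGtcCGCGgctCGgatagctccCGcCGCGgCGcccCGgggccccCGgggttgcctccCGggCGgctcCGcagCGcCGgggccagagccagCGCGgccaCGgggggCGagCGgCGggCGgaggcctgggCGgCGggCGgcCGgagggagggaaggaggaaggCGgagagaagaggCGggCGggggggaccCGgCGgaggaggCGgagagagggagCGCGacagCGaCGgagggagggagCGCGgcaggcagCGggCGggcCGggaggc
Dnmt3b: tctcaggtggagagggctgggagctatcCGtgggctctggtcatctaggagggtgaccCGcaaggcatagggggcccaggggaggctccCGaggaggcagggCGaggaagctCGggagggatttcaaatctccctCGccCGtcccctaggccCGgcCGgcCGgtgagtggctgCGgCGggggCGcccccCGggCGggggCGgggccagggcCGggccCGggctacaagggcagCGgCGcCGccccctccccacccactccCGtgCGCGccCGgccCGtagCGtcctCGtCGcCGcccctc
They held 46 and 30 CG, which 1.65% and 11.7% of all windows reach or pass. The third Dnmt3a start, at chr12:3891494-3891793, held 18. In the GENCODE annotation, Dnmt3a spans 3806007 to 3914443 on chromosome 12 and Dnmt3b 153649450 to 153687730 on chromosome 2, both on the plus strand. A value for the whole gene does not say which start was used.

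**Figure D2:**
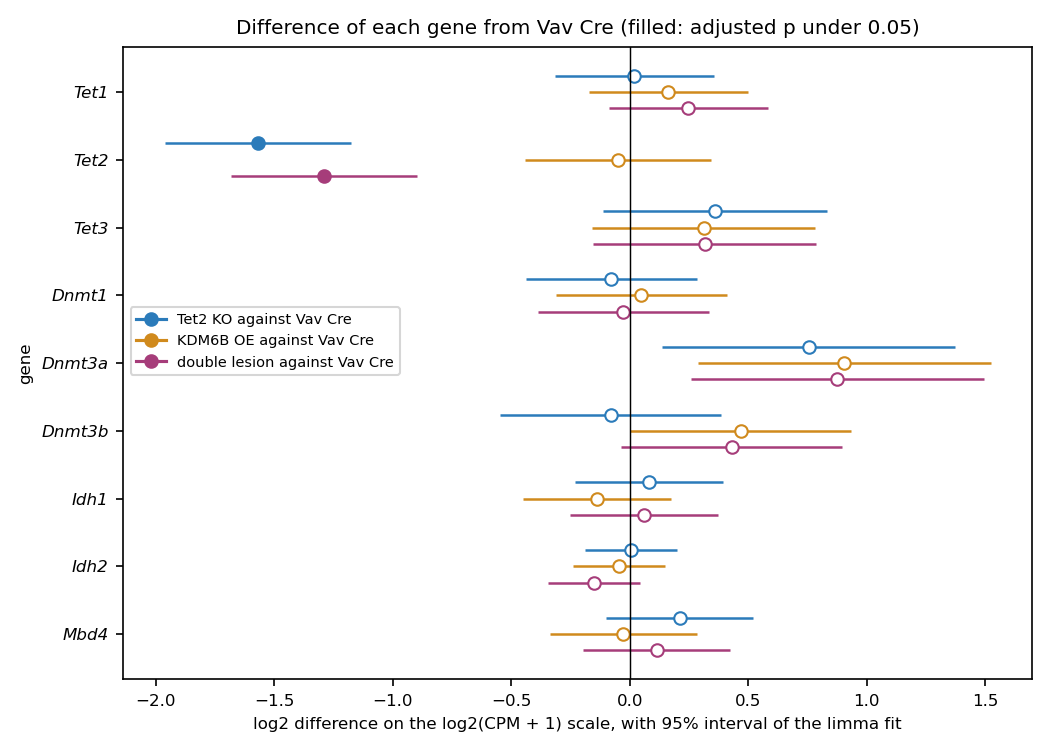
Difference of each gene on the log2(CPM + 1) scale from Vav Cre in the other 3 groups, with 95% intervals from limma. Filled points are called. Tet2 lies at −1.57 in Tet2 KO and −1.29 in the double lesion against Vav Cre, and the intervals of Dnmt3a against Vav Cre are the widest.

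Dnmt1 (chromosome 9, 20907209 to 20959888, minus strand), the maintenance enzyme, showed no called difference. It was at 212, 223 and 327 CPM in Vav Cre and 251, 185 and 282 CPM in Tet2 KO. In KDM6B OE it was at 259, 253 and 260 CPM and in the double lesion at 225, 269 and 241 CPM. Vav Cre alone spanned nearly the whole range of the 12 libraries, and all groups overlapped. Set against Vav Cre, Tet2 KO differed by −0.08 ± 0.17, KDM6B OE by 0.05 ± 0.17 and the double lesion by −0.03 ± 0.17 (95% interval −0.39 to 0.33). Summed genes of S phase and proliferation reached 5852 to 6692 CPM in Vav Cre. KDM6B OE had 5184 to 6075 CPM, Tet2 KO 5100 to 6368 CPM and the double lesion 4373 to 5040 CPM. In the double lesion against Vav Cre, 9 of 15 genes of that list were called lower, beside 7.58% of all genes. Dnmt1 was not called, and its difference from that list was not tested. Uhrf1, which recruits it to newly replicated CpG sites, differed by 0.25 ± 0.23 between the double lesion and Vav Cre (limma adjusted p = 0.486).

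Idh2 was the most abundant member, and its differences had the smallest standard error. It lies on the minus strand of chromosome 7 (80094846 to 80115392), and Idh1 on that of chromosome 1 (65158616 to 65186500). Idh2 was at 600.4, 646 and 605 CPM in Vav Cre and 575, 636 and 647 CPM in Tet2 KO. It was at 578, 574 and 640.3 CPM in KDM6B OE and 534, 586 and 548 CPM in the double lesion. The double lesion lay below Vav Cre with no overlap, as 32.8% of all genes did not overlap there, and the difference was −0.15 ± 0.09 (95% interval −0.34 to 0.04, limma adjusted p = 0.269). Idh1 was at 64.3, 85.6 and 61.3 CPM in Vav Cre and 62.0, 64.9 and 62.9 CPM with the transgene alone. Tet2 KO had 68.1, 70.7 and 83.5 CPM, and the double lesion had 63.2, 83.4 and 72.7 CPM. Its differences from Vav Cre lay between −0.14 and 0.08, each with a standard error of 0.15.

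Mbd4 (chromosome 6, 115840697 to 115853371, minus strand, with an exon of Gm44206 opposite it), the glycosylase of the set that was measured, was at 58.2, 43.9 and 48.1 CPM in Vav Cre and 60.9, 50.2 and 62.8 CPM in Tet2 KO. It was at 43.3, 51.9 and 51.6 CPM in KDM6B OE and 48.5, 54.8 and 58.9 CPM in the double lesion. The groups overlapped, and the largest difference from Vav Cre was 0.21 ± 0.14 in Tet2 KO (95% interval −0.10 to 0.52, limma adjusted p = 0.534). Over the 9 members the median difference from Vav Cre was 0.02 for Tet2 KO, 0.05 for KDM6B OE and 0.11 for the double lesion, beside 0.03, 0.04 and 0.05 over all genes tested.

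**Figure D3:**
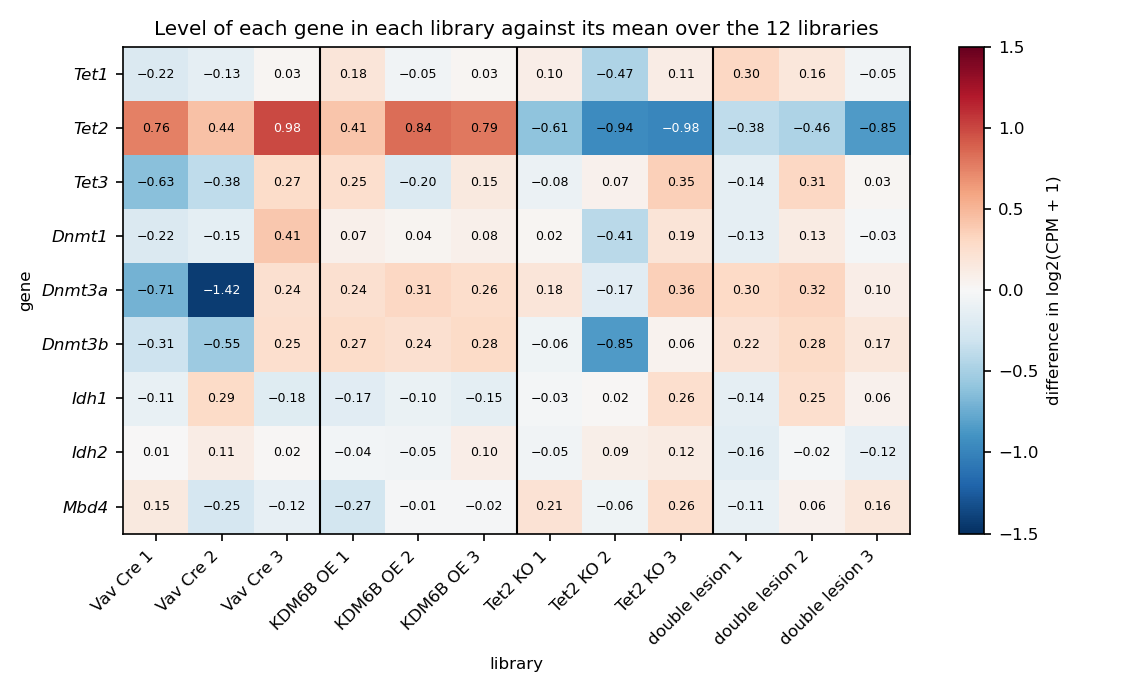
Deviation of each gene (rows) in each library (columns) from its mean over the 12 libraries, on the log2(CPM + 1) scale, with the value in each cell. The lowest Dnmt3a value is in Vav Cre replicate 2, and Tet2 is below its mean in all 6 floxed libraries.

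Levels of different genes were compared per kilobase of annotated exon, since longer genes collect more reads. The mean over 12 libraries was 231 CPM per kilobase for Idh2, 33.7 for Dnmt1, 25.3 for Idh1, 23.8 for Dnmt3b, 9.99 for Mbd4, 7.57 for Dnmt3a, 5.77 for Tet1, 3.27 for Tet2 and 2.50 for Tet3. Idh2 (206 to 250 CPM per kilobase) stood clear of Dnmt1 (25.1 to 44.3). Neighbours from Dnmt1 to Dnmt3b overlapped over the libraries, as did Mbd4 with Dnmt3a and Dnmt3a with Tet1, while Dnmt3b (12.8 to 28.3) stayed above Mbd4 (8.20 to 11.9). In the unfloxed groups Tet2 (3.85 to 5.76) overlapped Tet1 (4.12 to 7.08 over all libraries) and lay above Tet3 (1.56 to 2.98). In the floxed groups Tet2 (1.43 to 2.21) lay below Tet3 (2.23 to 3.15). The order of the means over all libraries was the same with the longest transcript as the length, but the place of Tet2 within groups was not. Per kilobase of longest transcript, floxed Tet2 (2.63 to 4.06) overlapped Tet3 (3.41 to 4.82), and unfloxed Tet2 (7.07 to 10.6) lay above Tet1 (5.28 to 7.002).

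**Figure D4:**
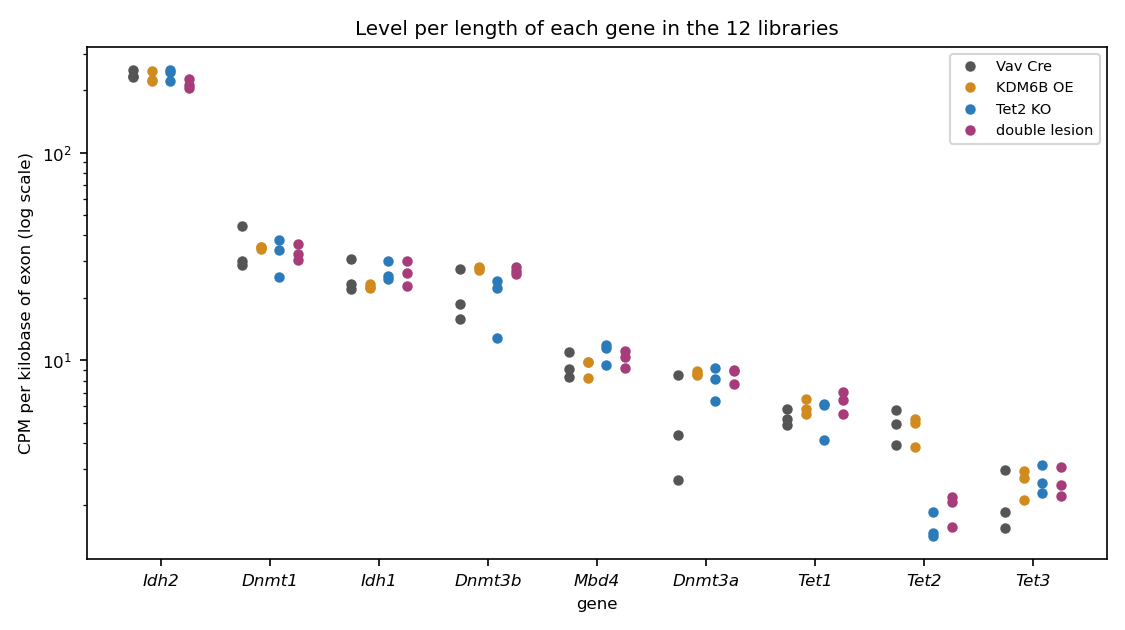
Level of each gene in CPM per kilobase of exon on a log axis, with genes in the order of their mean and 1 point per library, coloured by genotype. Idh2 lies at 206 to 250, and the floxed groups place Tet2 at 1.43 to 2.21, below its unfloxed 3.85 to 5.76.

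The genes most like each member were sought by Pearson's r of log2(CPM + 1) over the 12 libraries among 13045 other genes. For Tet2, Dhrs1 (r = 0.91) and Frrs1 (r = 0.87) were among the nearest. Dhrs1 was at 55.9 CPM in the floxed and 65.4 CPM in the unfloxed libraries, and Frrs1 at 104 and 149 CPM. Dnmt3a was most like Vps52 (r = 0.98), Dnmt3b like Galnt2 (0.97), Dnmt1 like Incenp (0.97) and Idh2 like Hbs1l (0.94). Tet1 was most like Ccdc94 (r = 0.93), Mbd4 like Gm10509 (0.91), Tet3 like Hsh2d (0.90) and Idh1 like Ms4a4b (0.88). These values describe 12 libraries that share groups and scaling, and were picked as the highest of many.

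Around the members, 67 other genes of the pathway were listed by role, of which 63 could be tested. In the double lesion against Vav Cre, 10 of 63 were called, a share near the 14.9% of all genes. By direction, 9 of 63 were called lower beside 7.58% of all genes, and 1 higher beside 7.34%. The median difference of the 63 genes was −0.06 beside 0.05 for all genes. Of the maintenance methylation partners and Dnmt relatives, 4 of 9 were called lower and 1 higher. Trdmt1, a methyltransferase of tRNA, fell from 26.0 to 16.5 CPM (−0.63 ± 0.17, limma adjusted p = 0.0301), and Hells, a chromatin remodeller needed for normal methylation, fell from 113 to 73.2 CPM (−0.58 ± 0.17, limma adjusted p = 0.0407). Uhrf2, a relative of Uhrf1, rose from 87.7 to 119 CPM (0.44 ± 0.13, limma adjusted p = 0.0345). The replication genes Lig1 (189 to 141 CPM) and Pcna (405 to 305 CPM) fell, and Fh1, fumarate hydratase, fell from 173 to 134 CPM; these 3 were chosen after their values were seen.

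Neil3, a DNA glycosylase, was the single gene called of 13 in base excision repair, beside 14.9% of all genes (114 to 70.6 CPM, −0.70 ± 0.16, limma adjusted p = 0.0150). In the 2-oxoglutarate list 4 of 18 were called lower, beside 7.58% of all genes, and none higher: Sdhb and Sdhd, subunits of succinate dehydrogenase, fell by 0.65 and 0.50, and Idh3g, a subunit of the NAD-dependent isocitrate dehydrogenase, by 0.45. None of the methyl-CpG readers (7 tested), Tet partners (6) or genes of the SAM and folate cycle (10) was called; Zbtb33 had a difference of −0.98 ± 0.32 (limma adjusted p = 0.0553) and Mtrr one of 0.50 ± 0.17 (0.0560). These 10 calls depend on the libraries: the count was 0 without double lesion replicate 1, 1 without Vav Cre replicate 2, 3 without double lesion replicate 2 or 3, 6 without KDM6B OE replicate 2 and 17 without Vav Cre replicate 3. With the compared groups alone it was 1, and DESeq2 called 20. Calls over all genes moved too, from 1947 in the main fit to 304 without double lesion replicate 1 and 3585 without Vav Cre replicate 3. They numbered 289 with the compared groups alone and 2676 by DESeq2. The S phase sum and the means of Hells, Lig1 and Pcna were all lowest in the double lesion. Within groups they did not always go together. Tet2 KO replicate 2 had the lowest sum of its group (5100 CPM) and the lowest Lig1 (154 CPM). It also had the highest Hells (101 CPM) and Pcna (373 CPM) of that group. The part of the S phase sum in the fall of these genes was not tested.

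**Figure D5:**
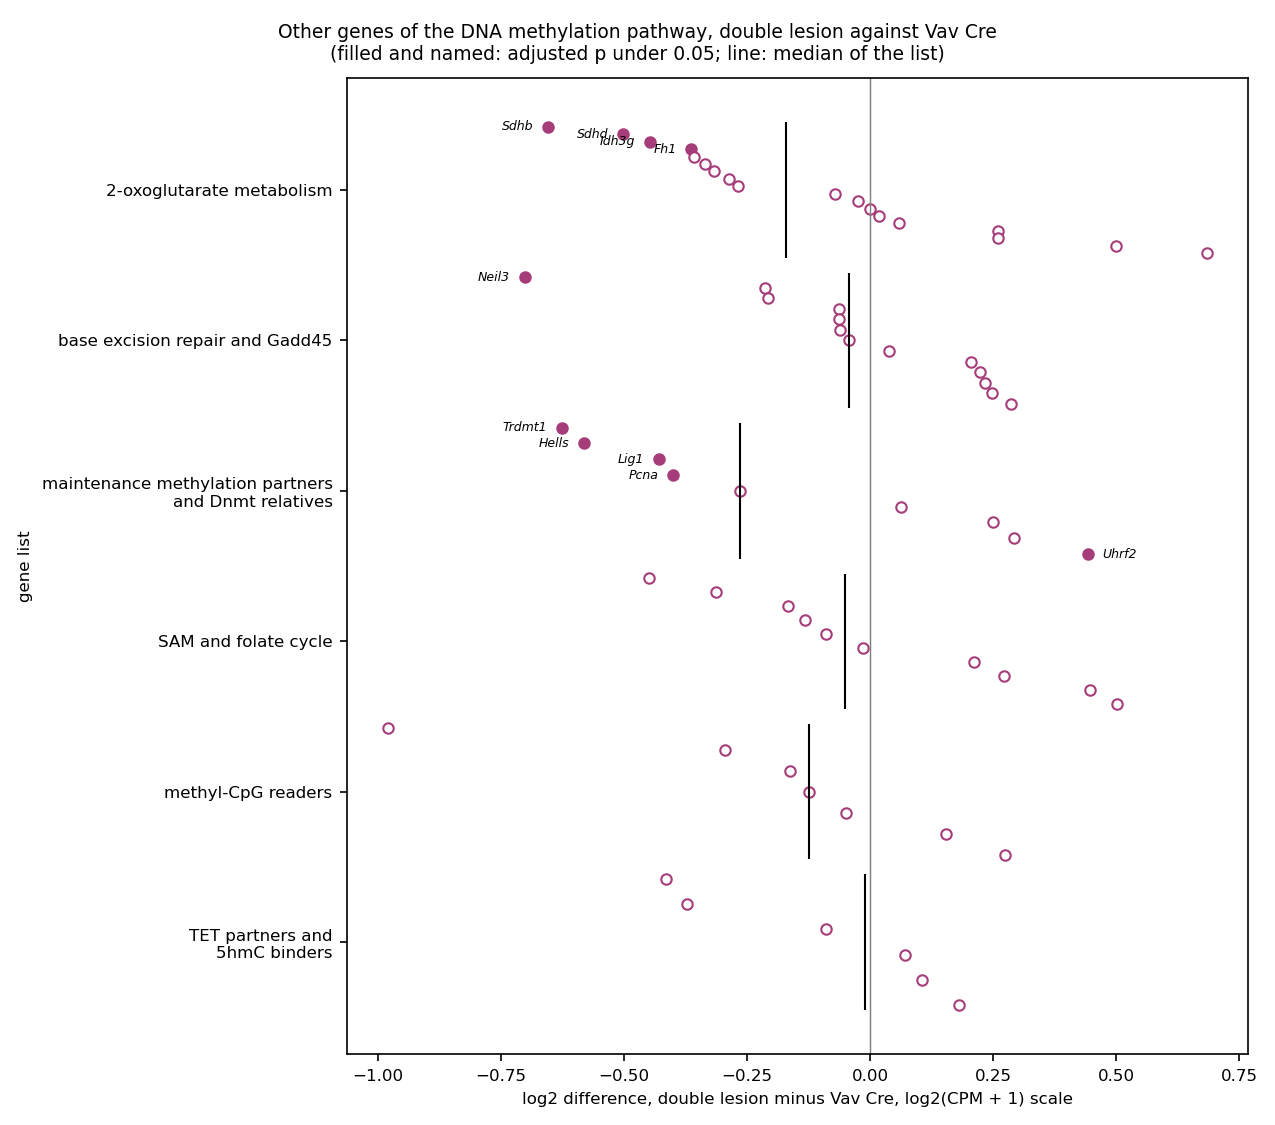
Difference between the double lesion and Vav Cre on the log2(CPM + 1) scale for the 63 tested pathway genes, by list. Filled, named points are called, and vertical lines are list medians. The maintenance list has 4 called lower and 1 higher, and the 2-oxoglutarate list 4 lower.

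In Tet2 KO and in KDM6B OE against Vav Cre, limma called 0 of the 63 genes, beside 0.0307% and 0.598% of all genes. DESeq2 called 1 and 4 of the 63, and 160 and 737 of all genes. Between the transgene libraries and the rest, Trdmt1, Sdhb and Fh1 were called lower, 3 of 63 beside 4.35% of all genes (1.83% lower). Leaving out a library moved this count between 0 and 14, and the count over all genes between 94 and 2771. Immediate early genes, which answer acute signals or handling, summed to 1246 to 2393 CPM in Vav Cre and 1381 to 2942 CPM in Tet2 KO. They summed to 7057 to 10184 CPM in KDM6B OE and 7191 to 10978 CPM in the double lesion. The 12 listed were all called higher with the transgene, beside 2.52% of all genes called higher, and this is the split of libraries along which Dnmt3b differed; their part in that result was not tested.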

How the data were processed

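The 12 deposited libraries were made with a SMARTer and Nextera kit, per the labels' protocols, from sorted LSK cells. Per the submitters' processing notes, the authors used TopHat2 2.0.10, HTSeq 0.6.0 and edgeR 3.8.6 with mm10. Which annotation and strand setting they used is not given in the sources used here. As deposited by the authors, the unit is a signal: whole read counts over an effective library size (CPM after edgeR scaling), from which 100% of values gave whole reads within 1e-06. The fixed design had foreseen plain CPM. No gene had under 10 reads over the libraries.

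Genes above 1 CPM in at least 3 libraries were tested with limma 3.58.1 under R 4.3.3 on log2(CPM + 1) (empirical Bayes with a mean trend, all 12 libraries in 1 fit, Benjamini-Hochberg adjustment), after a test on simulated data. Alternatives were edgeR 4.0.16 and DESeq2 1.42.0 on the recovered reads, another pseudocount, no filter, equal totals, the compared groups alone, a replicate block, a term for Y transcripts, and each library left out. A permutation test was exact and two-sided; 3 libraries against 3 cannot go below p = 0.1. Gene lengths came from GENCODE M21 and promoter windows from RefSeq. Between replicates, chi-square per gene was 17.6 to 89.1, above sampling noise. Members and lists were chosen with earlier results of these data known. All members were named. Of each pathway list in the double lesion against Vav Cre, the 3 called genes of largest difference, or else the one of smallest p, were named. For the other comparisons, uncalled genes of smallest p are not named. Of the genes most like Tet2, 1 is not reported here. Same-numbered libraries of Vav Cre and Tet2 KO deviated together (r = 0.335, 0.340 and 0.300 over genes). After these values were seen, the numbers were taken to pair these 2 groups. The main fit carries no such pairing, and no fit paired these 2 groups alone. The replicate block was fitted by number over all 12 libraries, so it also links groups that were not taken as pairs. With it Tet2 stayed called in Tet2 KO against Vav Cre (limma adjusted p = 0.0273).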

Additional observations from a re-analysis of the deposited data

How the results depend on the processing

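Of 72 results for the members (9 genes in 8 comparisons), 1413 values under the alternatives gave the same call in 1395, a call gained in 17 and lost in 1, and no called value reversed. The term for Y transcripts changed no member's call. Values that were not called changed sign 65 times, none larger than 0.24. The number of members called was 0 for Tet2 KO against Vav Cre with the compared groups alone (1 in the report). It was 2 in the double lesion against Vav Cre with equal totals and with the replicate block (1 in the report), the addition being Dnmt3a (adjusted p = 0.0478 and 0.0321). It was 1 against KDM6B OE with the compared groups alone and with DESeq2, and 1 between transgene and other libraries with the replicate block (Dnmt3b, adjusted p = 0.0327) and with DESeq2 (0.0419). Leaving out 1 library gave 1 to 2 (Tet2 KO), 0 to 2 (KDM6B OE) and 1 to 4 (double lesion) against Vav Cre, 0 to 1 for the double lesion against KDM6B OE, 1 to 2 for the floxed libraries and 0 to 2 for the transgene libraries.

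For the 63 pathway genes, DESeq2 called 1 in Tet2 KO, 4 in KDM6B OE and 20 in the double lesion against Vav Cre, 1 in the floxed and 11 in the transgene libraries. The replicate block gave 2 in KDM6B OE, 17 in the double lesion and 8 in the transgene libraries. The compared groups alone gave 1 in the double lesion, and no filter gave 1 in the transgene libraries. Leaving out 1 library gave 0 to 6 in KDM6B OE, 0 to 17 in the double lesion and 0 to 14 in the transgene libraries. Over all genes DESeq2 called 160, 737 and 2676 against Vav Cre, in the same order, 360 in the floxed and 1624 in the transgene libraries. The block called 284 in KDM6B OE, 2699 in the double lesion and 1516 in the transgene libraries. The compared groups alone gave 289 in the double lesion, and no filter 391 in the transgene libraries. Leaving out 1 library gave 22 to 1934, 304 to 3585 and 94 to 2771, in the order above. The causes were not tested. Same-numbered libraries of different groups had correlated deviations of −0.149 to 0.388 (18 pairs), not all above 0.1. Outside Vav Cre with Tet2 KO, each pair of groups had at least 1 correlation under 0.1, and the numbers were not taken as pairs there. The replicate block changed no other call of a member, and over all genes it called 1 in Tet2 KO against Vav Cre. Over all genes, calls against Vav Cre numbered 4 in Tet2 KO (0 to 307 under the alternatives), 78 in KDM6B OE (22 to 1934) and 1947 in the double lesion (289 to 3585). The recovered reads of Tet2 in its lowest library numbered 537.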
